A study of Homo sapiens with 8 samples.

Results

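The JAK-STAT pathway was followed here through 10 genes in DND-41 and MOLT-4, 2 human cell lines of T-cell acute lymphoblastic leukaemia, or T-ALL. The genes were listed by name and matched by symbol in the deposited tables: the transcription factor genes STAT5A, STAT5B and STAT3, the kinase genes JAK1 and JAK3, the feedback inhibitor genes SOCS1, SOCS2, SOCS3 and CISH, and the survival kinase gene PIM1. They are 10 of the 63677 genes counted, and all 10 passed the filter on low counts in every fit of the main test.

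In this pathway a cytokine receptor without enzyme activity of its own is paired with Janus kinases, JAK1 and JAK3 for the receptors that use the common gamma chain, such as the interleukin-7 receptor. The kinases phosphorylate STAT proteins, which move to the nucleus and bind DNA. Among the genes that activated STAT5 is known to induce in lymphoid cells are CISH, SOCS1, SOCS2, SOCS3 and PIM1, and the SOCS and CISH proteins then dampen the receptor and its kinases. STAT5A and STAT5B are close relatives that stand next to each other in the genome, STAT5B is in general the form linked to lymphoid cells, and activation of the interleukin-7 receptor pathway is a recurrent feature of T-ALL.

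The 8 libraries form 4 groups of 2: DND-41 cells after 3 h with 100 nM ACBI-1, DND-41 cells after 3 h with DMSO, MOLT-4 cells after 3 h with 100 nM ACBI-1, and MOLT-4 cells after 3 h with DMSO. ACBI-1, a degrader molecule, brings the VHL ubiquitin ligase to SMARCA2, SMARCA4 and PBRM1, subunits of SWI/SNF chromatin remodelling complexes, and DMSO was the control treatment. All cells were grown in RPMI-1640 with serum and antibiotics, and neither a genotype nor an added cytokine is named in the labels. Whether replicates are separate cultures is not stated in the labels, and the p-values therefore reflect only how these libraries vary, which may be technical.

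Total counts were nearly equal, between 19867779 and 20082524 reads per library; levels are given as reads or as CPM, the reads scaled to a common library total. Of 10 T-cell markers, 9 reached 1 CPM in both libraries of each DND-41 group and 10 did so in each MOLT-4 group; PTCRA was at or near 0 in DND-41. Markers of myeloid and erythroid cells summed to at most 0.604 CPM in any library. Of 6 B-cell markers, CD79A stood at 1640 CPM in DND-41 ACBI-1 and 1730 CPM in DND-41 DMSO, against 11.5 CPM in MOLT-4 ACBI-1 and 12.3 CPM in MOLT-4 DMSO, while MS4A1 had 0 counts in all libraries. Mitochondrially encoded genes took 13.3% to 20.04% of the counts, with 17.4% in DND-41 ACBI-1 replicate 1 and 13.3% in DND-41 ACBI-1 replicate 2; their part in the results was not tested. Reads of MOLT-4 were found in DND-41 DMSO replicate 2, as described with STAT5A, and differences and shares of STAT5A that use it, and member calls that change without it, are given both ways.

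The first comparison set the lines against each other, as DND-41 minus MOLT-4, once in ACBI-1 and once in DMSO. The STAT and feedback genes lay on opposite sides. MOLT-4 had the higher transcript levels of all 3 STAT genes and of JAK3, and DND-41 had the higher levels of CISH, SOCS1, SOCS2 and PIM1, in both treatments. CISH, SOCS2 and STAT5A differed most, by more than 6 on the log2 scale. JAK1 was higher in DND-41 by a smaller margin, and SOCS3 was low in both lines. In DMSO 5 of 10 genes were higher and 4 lower in DND-41 past an adjusted p of 0.05, against 31.6% higher and 32.8% lower (64.4% in all) of the 15604 genes tested (edgeR quasi-likelihood test, Benjamini-Hochberg adjustment). In ACBI-1 the counts were again 5 and 4, against 30.9% higher and 33.9% lower (64.8% in all). Against that background a call alone does not set these genes apart, and the sizes are therefore given for each gene. The lines did not overlap for 9 of 10 genes in either treatment, against 80.7% of all genes tested in ACBI-1 and 81.8% in DMSO. The median of the 10 genes was 0.30 in ACBI-1 and 0.14 in DMSO, beside -0.02 in ACBI-1 and -0.0062 in DMSO over all genes tested. The labels name no spike-in, so each value is relative to its library's total, and fewer cells that express a gene cannot be told apart from less RNA per cell.

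**Figure D1:**
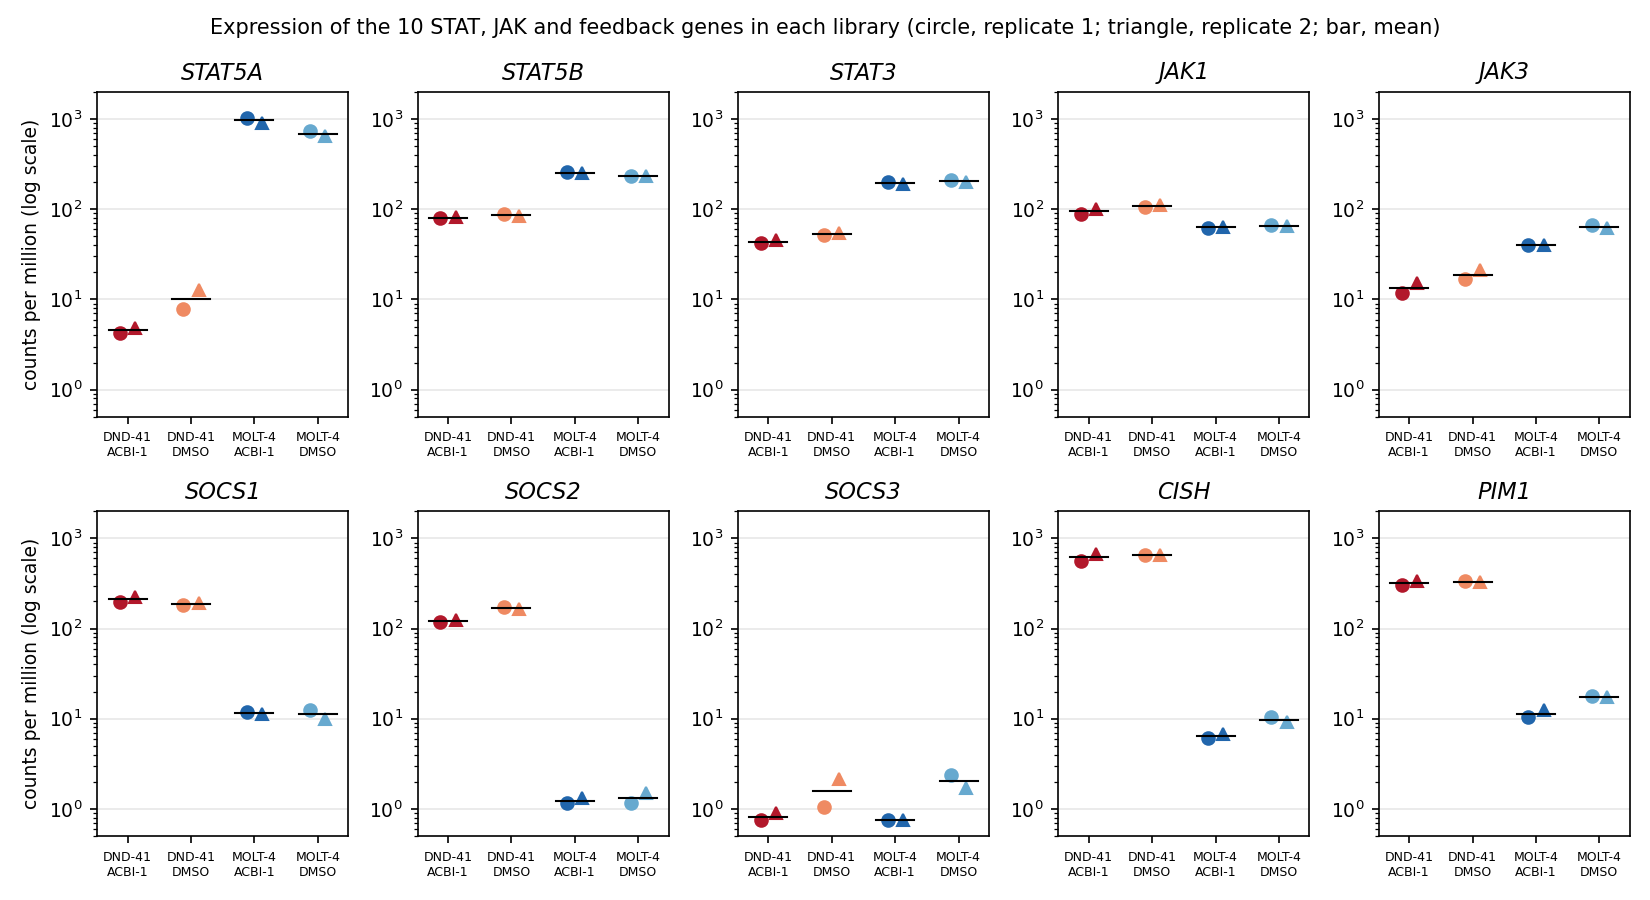
CPM (log axis) of the 10 genes in each of the 8 libraries, with circles for replicate 1, triangles for replicate 2 and bars for the mean of a group. CISH averaged 653 CPM in DND-41 DMSO and 9.76 CPM in MOLT-4 DMSO, while STAT5A averaged 10.2 CPM in DND-41 DMSO and 689 CPM in MOLT-4 DMSO.

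CISH encodes a member of the SOCS family that is best known as an early STAT5 target. It had 11344 and 13516 reads in DND-41 ACBI-1 and 13045 and 13110 reads in DND-41 DMSO. In MOLT-4 it had 123 and 133 reads in ACBI-1 and 207 and 181 reads in DMSO. The lowest DND-41 library thus stood far above the highest MOLT-4 library. The difference, DND-41 minus MOLT-4, was 6.53 ± 0.10 (log2 fold change ± standard error, edgeR adjusted p = 1.09e-26) in ACBI-1 and 6.01 ± 0.10 (edgeR adjusted p = 1.82e-26) in DMSO. An antisense gene, MAPKAPK3, overlaps exons of CISH and was also higher in DND-41, by 2.45 ± 0.07 in ACBI-1 and 2.33 ± 0.07 in DMSO. It had 6111 to 6875 reads in the DND-41 libraries. Of the 100-base windows of CISH transcripts, 2.24% also occur in another gene's transcripts, and reads of the overlap could not be separated.

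The promoter of CISH is shown because it is the 1 member promoter that holds the consensus letters bound by STAT dimers, TTCNNNGAA. These letters read the same on both strands, and overlapping matches were counted. The 250 bases before the CISH start are given 5′ to 3′ from the RefSeq table, at chr3:50611775-50612024 on the minus strand of build GRCh38.p14, with the matches in capitals.
CISH promoter: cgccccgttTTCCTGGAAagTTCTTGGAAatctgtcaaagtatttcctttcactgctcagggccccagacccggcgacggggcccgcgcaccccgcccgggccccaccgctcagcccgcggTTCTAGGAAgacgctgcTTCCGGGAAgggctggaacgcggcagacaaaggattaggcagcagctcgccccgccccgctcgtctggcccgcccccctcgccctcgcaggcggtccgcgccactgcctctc
The 4 matches begin at positions -241, -230, -129 and -112, counted from the start. Of 35116 RefSeq windows of 300 bases, which run from 250 bases before to 50 bases after a start, 7.66% hold at least 1 match, 0.456% hold 2 or more and 7 windows, or 0.0199%, hold 4 or more. Windows were in the table for 9 of the 10 genes, 14 in all, and none of those of genes other than CISH held a match, which says only that these letters are not in those windows. SOCS2 was not matched in the table. A match describes the sequence, and binding was not measured here.

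SOCS2 encodes a feedback inhibitor best known for its action on growth hormone signalling. It had 2371 and 2467 reads in DND-41 ACBI-1 and 3435 and 3349 reads in DND-41 DMSO, against 23 and 26 reads in MOLT-4 ACBI-1 and 23 and 30 reads in MOLT-4 DMSO. At 1.33 CPM in MOLT-4 DMSO the gene was near the low end of what was tested. The difference between lines was 6.55 ± 0.12 in ACBI-1 and 6.93 ± 0.11 in DMSO (edgeR adjusted p = 9.07e-26 in ACBI-1 and 1.82e-26 in DMSO). An antisense gene, SOCS2-AS1, overlaps exons of SOCS2, and it had 389 and 363 reads in DND-41 ACBI-1, 452 and 415 in DND-41 DMSO, and 5 to 9 reads in the MOLT-4 libraries. The libraries were strand-specific, but how the counting used strand is not stated, so reads of the overlap could not be separated. Of the 100-base windows of SOCS2 transcripts, 1.44% also occur in another gene's transcripts.

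SOCS1 encodes a direct inhibitor of JAK kinases. It had 3981 and 4519 reads in DND-41 ACBI-1 and 3623 and 3872 reads in DND-41 DMSO, against 238 and 227 reads in MOLT-4 ACBI-1 and 246 and 198 reads in MOLT-4 DMSO. That is a difference of 4.13 ± 0.09 in ACBI-1 and 4.02 ± 0.09 in DMSO. PIM1, a serine/threonine kinase gene and STAT5 target, had 6145 and 6767 reads in DND-41 ACBI-1 and 6678 and 6525 reads in DND-41 DMSO. In MOLT-4 it had 208 and 246 reads in ACBI-1 and 353 and 342 reads in DMSO. The PIM1 difference was 4.76 ± 0.09 in ACBI-1 and 4.19 ± 0.08 in DMSO, and no DND-41 library of either gene came near a MOLT-4 library.

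STAT5A ran the other way. It had 85 and 98 reads in DND-41 ACBI-1 and 155 and 255 reads in DND-41 DMSO, against 20247 and 18241 reads in MOLT-4 ACBI-1 and 14611 and 12790 reads in MOLT-4 DMSO. The difference between lines was -7.78 ± 0.14 in ACBI-1 and -6.12 ± 0.13 in DMSO (edgeR adjusted p = 9.07e-26 in ACBI-1 and 9.06e-25 in DMSO). Without DND-41 DMSO replicate 2 the DMSO value was -6.53, and with the MOLT-4 reads in that library subtracted it was -6.43. STAT5B was lower in DND-41 by less: it had 1599 and 1643 reads in DND-41 ACBI-1 and 1780 and 1687 in DND-41 DMSO, against 5189 and 4984 in MOLT-4 ACBI-1 and 4702 and 4604 in MOLT-4 DMSO, a difference of -1.72 ± 0.06 in ACBI-1 and -1.49 ± 0.06 in DMSO.

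Per length the 2 lines held different mixtures of STAT5 transcripts. Levels were divided by the summed exon length of each gene in GENCODE release 29, which is not the annotation of the deposited counts. On that scale STAT5A made up 5.62% and 6.26% of the STAT5A and STAT5B total in the DND-41 ACBI-1 libraries and 8.89% and 14.5% in the DND-41 DMSO libraries, the second of which came to 10.6% after subtraction of MOLT-4 reads. In MOLT-4 it made up 81.4% and 80.4% in the ACBI-1 libraries and 77.7% and 75.7% in the DMSO libraries. The summed level was 13.1 and 13.6 CPM per kilobase in DND-41 ACBI-1 and 15.2 in both DND-41 DMSO libraries, against 217 and 198 in MOLT-4 ACBI-1 and 164 and 148 in MOLT-4 DMSO. DND-41, with the lower STAT5 transcript level, was thus the line with the higher CISH, SOCS1, SOCS2 and PIM1 levels. Of the 100-base windows of STAT5A transcripts 6.14% occur without mismatch in STAT5B transcripts, and 5.67% of those of STAT5B occur in STAT5A transcripts. Some reads of either gene could therefore belong to the other, depending on how such reads were counted. That part need not be small for the gene with fewer reads, STAT5A by a wide margin in DND-41 and STAT5B by a smaller one in MOLT-4. Its bearing on the STAT5A share and on the response of STAT5A in DND-41 was not tested.

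The order per length within a group showed the same inversion. In DND-41 DMSO the highest mean levels among the 10 genes were 128 CPM per kilobase for CISH, 111 for PIM1 and 104 for SOCS1, and STAT5A with 1.78 and SOCS3 with 0.584 were lowest. In MOLT-4 DMSO the highest were 120 CPM per kilobase for STAT5A, 36.3 for STAT5B and 23.2 for STAT3, and CISH with 1.91, SOCS3 with 0.745 and SOCS2 with 0.197 were lowest.

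STAT3, the mediator of interleukin-6-type signals, had 848 and 906 reads in DND-41 ACBI-1 and 1025 and 1091 in DND-41 DMSO, against 4012 and 3812 in MOLT-4 ACBI-1 and 4152 and 3982 in MOLT-4 DMSO, a difference of -2.22 ± 0.07 in ACBI-1 and -2.003 ± 0.07 in DMSO. JAK3, the kinase of the common gamma chain, had 237 and 303 reads in DND-41 ACBI-1 and 334 and 423 in DND-41 DMSO, against 799 and 803 in MOLT-4 ACBI-1 and 1333 and 1220 in MOLT-4 DMSO, a difference of -1.63 ± 0.11 in ACBI-1 and -1.81 ± 0.10 in DMSO. JAK1, the widely expressed partner kinase, had 1763 and 2030 reads in DND-41 ACBI-1 and 2120 and 2233 in DND-41 DMSO, against 1237 and 1281 in MOLT-4 ACBI-1 and 1331 and 1294 in MOLT-4 DMSO. Of the JAK genes among the 10, JAK1 was thus higher and JAK3 lower in DND-41, with JAK1 higher by 0.52 ± 0.07 in ACBI-1 and 0.67 ± 0.07 in DMSO. The groups of the lines did not overlap for any of these 3 genes. Exons of JAK1 overlap the antisense gene RAVER2, which had 91 to 130 reads in the DND-41 libraries and 306 to 414 in the MOLT-4 libraries.

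SOCS3, the feedback inhibitor of interleukin-6-type receptors, had 15 and 18 reads in DND-41 ACBI-1 and 21 and 43 in DND-41 DMSO, against 15 and 15 in MOLT-4 ACBI-1 and 47 and 34 in MOLT-4 DMSO. It was the 1 member with overlapping lines. Its difference was 0.07 ± 0.42 (edgeR adjusted p = 0.896) in ACBI-1 and -0.40 ± 0.30 (edgeR adjusted p = 0.252) in DMSO. In DMSO that value was -1.01 (edgeR adjusted p = 0.0241) without DND-41 DMSO replicate 2 and 0.03 without DND-41 DMSO replicate 1.

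**Figure D2:**
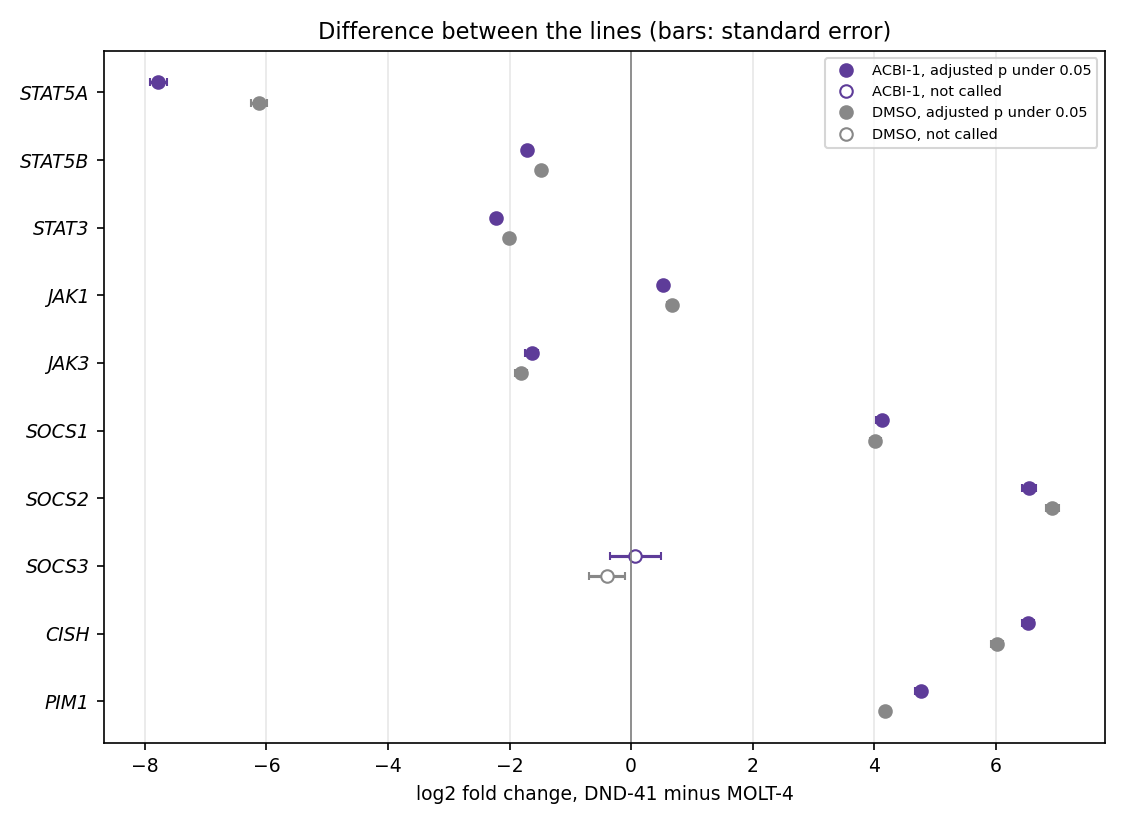
Log2 fold change of DND-41 minus MOLT-4 for the 10 genes in ACBI-1 (purple) and DMSO (grey), with standard errors from the edgeR fit of 8 libraries; filled points have an adjusted p under 0.05. STAT5A, STAT5B, STAT3 and JAK3 lie left of 0, JAK1, SOCS1, SOCS2, CISH and PIM1 lie right of it, and SOCS3 is not called.

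The second comparison asked what 3 h of ACBI-1 did to these genes in DND-41. Of the 10 genes 4 fell and 0 rose, against 6.05% lower and 3.78% higher (9.83% in all) of the 14019 genes tested. SOCS2, JAK3, STAT3 and STAT5A fell, while the groups overlapped for CISH and PIM1. The median of the 10 genes was -0.24, beside 0.0029 over all genes tested. The groups did not overlap for 8 of 10 genes, against 48.7% of all genes tested.

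SOCS2 fell to 121 ± 3.28 CPM in DND-41 ACBI-1, against 169 ± 3.72 CPM in DND-41 DMSO (SD, n = 2 libraries each), which is -0.50 ± 0.07 on the log2 scale (edgeR adjusted p = 2.22e-06). It was called in 9 of 11 alternative settings, with values between -0.51 and -0.48, and its adjusted p was 0.0969 without DND-41 ACBI-1 replicate 1 and 0.0665 without the filter on low counts. The antisense gene SOCS2-AS1 was at -0.21 ± 0.10 and not called (edgeR adjusted p = 0.193). In MOLT-4, where SOCS2 had 23 to 30 reads, its log2 fold change was -0.14 ± 0.31, and a change of the size seen in DND-41 was not detectable at this depth.

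STAT5A fell to 4.57 ± 0.46 CPM in DND-41 ACBI-1, against 10.2 ± 3.49 CPM in DND-41 DMSO, or -1.17 ± 0.18 on the log2 scale (edgeR adjusted p = 2.24e-05). The DND-41 DMSO libraries differed from each other, with 155 and 255 reads, and the second held MOLT-4 reads. A set of 24 genes was at 50 CPM or more in MOLT-4 DMSO and at most 0.1% of that level in at least 3 DND-41 libraries. Over these genes DND-41 DMSO replicate 2 stood at a median of 0.573% of the MOLT-4 level, against at most 0.0086% in the other 3 DND-41 libraries. That choice of genes sets 3 libraries low, but it does not set which library stands out. ITM2A, 1 of these genes, had 56 reads in that library and at most 2 in the others. In DND-41 DMSO replicate 2 the 24 genes ranged from 0.2298% to 1.284%. STAT5A is abundant enough in MOLT-4 for such a share to matter. Subtracting the median share left 176 of the 255 reads. The log2 fold change then became -0.87 ± 0.16 (edgeR adjusted p = 0.00025), with a standard error that leaves out the range of the share. Without DND-41 DMSO replicate 2 it was -0.77 ± 0.21 (edgeR adjusted p = 0.0107), and without DND-41 DMSO replicate 1 it was -1.495. The call was lost without DND-41 ACBI-1 replicate 1 (edgeR adjusted p = 0.251) or DND-41 ACBI-1 replicate 2 (0.151).

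**Figure D3:**
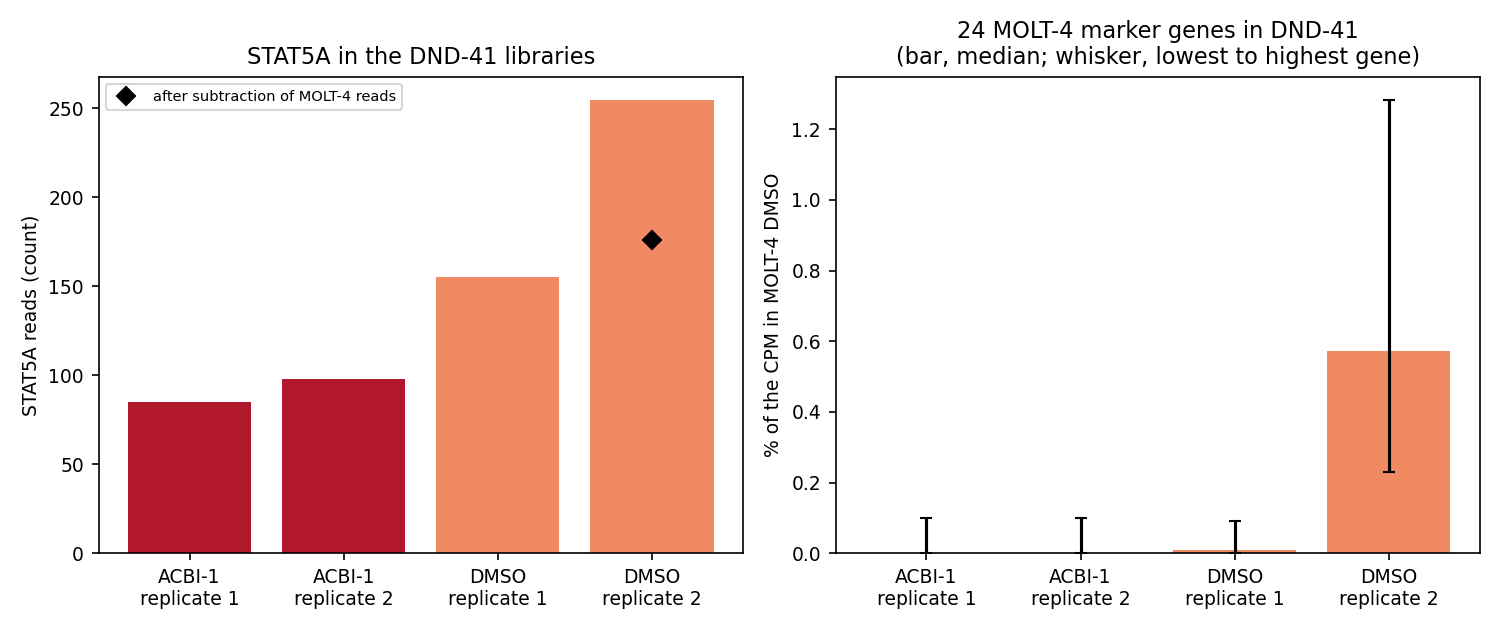
Left, STAT5A reads in the 4 DND-41 libraries, with a diamond for DMSO replicate 2 after subtraction of MOLT-4 reads (176 in place of 255). Right, the level of 24 MOLT-4 marker genes in the same libraries, as a percentage of their CPM in MOLT-4 DMSO (bar, median; whisker, lowest to highest gene); DMSO replicate 2 has a median of 0.573%.

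JAK3 fell in DND-41 (-0.50 ± 0.12, edgeR adjusted p = 0.00497), with 13.5 ± 2.32 CPM in ACBI-1 and 18.9 ± 3.07 CPM in DMSO, and its groups did not overlap. DESeq2 did not call it (adjusted p = 0.0838), nor did edgeR without DND-41 DMSO replicate 2 (edgeR adjusted p = 0.29, at -0.32) or without DND-41 ACBI-1 replicate 1 (0.376) or DND-41 ACBI-1 replicate 2 (0.133). STAT3 fell by less (-0.28 ± 0.08, edgeR adjusted p = 0.0151), with 43.8 ± 2.01 CPM in ACBI-1 and 52.8 ± 2.12 CPM in DMSO. STAT3 was not called by DESeq2 (adjusted p = 0.109), nor when any 1 of the 4 libraries was left out.

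The other genes of DND-41 were not called. JAK1 was at -0.21 ± 0.07 (edgeR adjusted p = 0.0562), and the fit of all 8 libraries called it (-0.22, edgeR adjusted p = 0.0382). The second STAT5 gene, STAT5B, was at -0.11 ± 0.07 (edgeR adjusted p = 0.412). SOCS1 was at 0.17 ± 0.07 (edgeR adjusted p = 0.123), with both ACBI-1 libraries above both DMSO libraries. SOCS3, for which DESeq2 gave no adjusted p in DND-41, was at -0.96 ± 0.36 (edgeR adjusted p = 0.0943) on 15 to 43 reads. That value depended on the DMSO library: it was -1.39 (edgeR adjusted p = 0.0265) without DND-41 DMSO replicate 1 and -0.35 (edgeR adjusted p = 0.854) without DND-41 DMSO replicate 2. CISH averaged 621 ± 76.1 CPM in ACBI-1 and 653 ± 0.35 CPM in DMSO (-0.08 ± 0.08, edgeR adjusted p = 0.622), and PIM1 322 ± 21.7 CPM in ACBI-1 and 330 ± 6.74 CPM in DMSO (-0.04 ± 0.07, edgeR adjusted p = 0.814). The 2 ACBI-1 libraries of CISH lay on either side of the DMSO libraries.

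The third comparison asked the same of MOLT-4. JAK3, PIM1, CISH and SOCS3 fell and STAT5A rose, 4 lower and 1 higher of 10, against 6.94% lower and 3.9% higher (10.8% in all) of the 14470 genes tested. The median of the 10 genes was -0.12, beside -0.00097 over all genes. The groups did not overlap for 7 of 10 genes, against 51.6% of all genes tested. These calls rest on both ACBI-1 libraries. Without either, edgeR called none of the 10 genes and 0 genes in all, although 5 members and, among all genes, 1874 (without MOLT-4 ACBI-1 replicate 1) or 2273 (without MOLT-4 ACBI-1 replicate 2) had an unadjusted p under 0.05.

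JAK3 fell to 40.2 ± 0.19 CPM in MOLT-4 ACBI-1, against 64.2 ± 3.97 CPM in MOLT-4 DMSO (SD, n = 2 libraries each), or -0.70 ± 0.07 on the log2 scale (edgeR adjusted p = 1.40e-07). It was the member with the smallest p in this line, and JAK3 is also the 1 member called lower in both lines. In DND-41 that call was not made by DESeq2 (adjusted p = 0.0838), and the value was -0.32 without DND-41 DMSO replicate 2. SOCS3 also lay lower in both lines but was called in MOLT-4 alone. PIM1 fell to 11.4 ± 1.36 CPM in MOLT-4 ACBI-1, against 17.5 ± 0.38 CPM in MOLT-4 DMSO (-0.64 ± 0.11, edgeR adjusted p = 0.000231).

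CISH fell to 6.43 ± 0.36 CPM in MOLT-4 ACBI-1, against 9.76 ± 0.92 CPM in MOLT-4 DMSO (-0.63 ± 0.14, edgeR adjusted p = 0.00268). SOCS3 fell to 0.754 CPM in both MOLT-4 ACBI-1 libraries, 15 reads each, against 2.04 ± 0.46 CPM in MOLT-4 DMSO (-1.45 ± 0.32, edgeR adjusted p = 0.00256). DESeq2 did not call CISH (adjusted p = 0.0749) or SOCS3 (adjusted p = 0.0906). Part of the exons of CISH overlap the antisense gene MAPKAPK3, which had more reads than CISH in MOLT-4, 1178 and 1097 in ACBI-1 and 1229 and 1202 in DMSO, and was not called (-0.12 ± 0.07, edgeR adjusted p = 0.3). Since DND-41 carries far more CISH, DND-41 reads were looked for in MOLT-4 over 7 DND-41 marker genes. These were at 50 CPM or more in DND-41 DMSO and at most 0.1% of that level in at least 3 MOLT-4 libraries. Their median was at most 0.0885% of the DND-41 level in any MOLT-4 library, with single genes up to 0.2786%. Because the choice of genes itself keeps these levels low, they set no upper limit on DND-41 reads in MOLT-4. After subtracting each library's median share, CISH had 112 and 122 reads in MOLT-4 ACBI-1 and 207 and 171 in MOLT-4 DMSO. With these shares subtracted, which need not be all of the DND-41 reads, the same 5 members were called.

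STAT5A rose to 967 ± 70.1 CPM in MOLT-4 ACBI-1, against 689 ± 64.3 CPM in MOLT-4 DMSO (0.46 ± 0.07, edgeR adjusted p = 3.82e-05), with both ACBI-1 libraries above both DMSO libraries. STAT5B was at 0.099 ± 0.06 (edgeR adjusted p = 0.348), STAT3 at -0.09 ± 0.06 (0.451), JAK1 at -0.09 ± 0.07 (0.492), SOCS1 at 0.04 ± 0.12 (0.906) and SOCS2 at -0.14 ± 0.31 (0.85), none of them called.

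**Figure D4:**
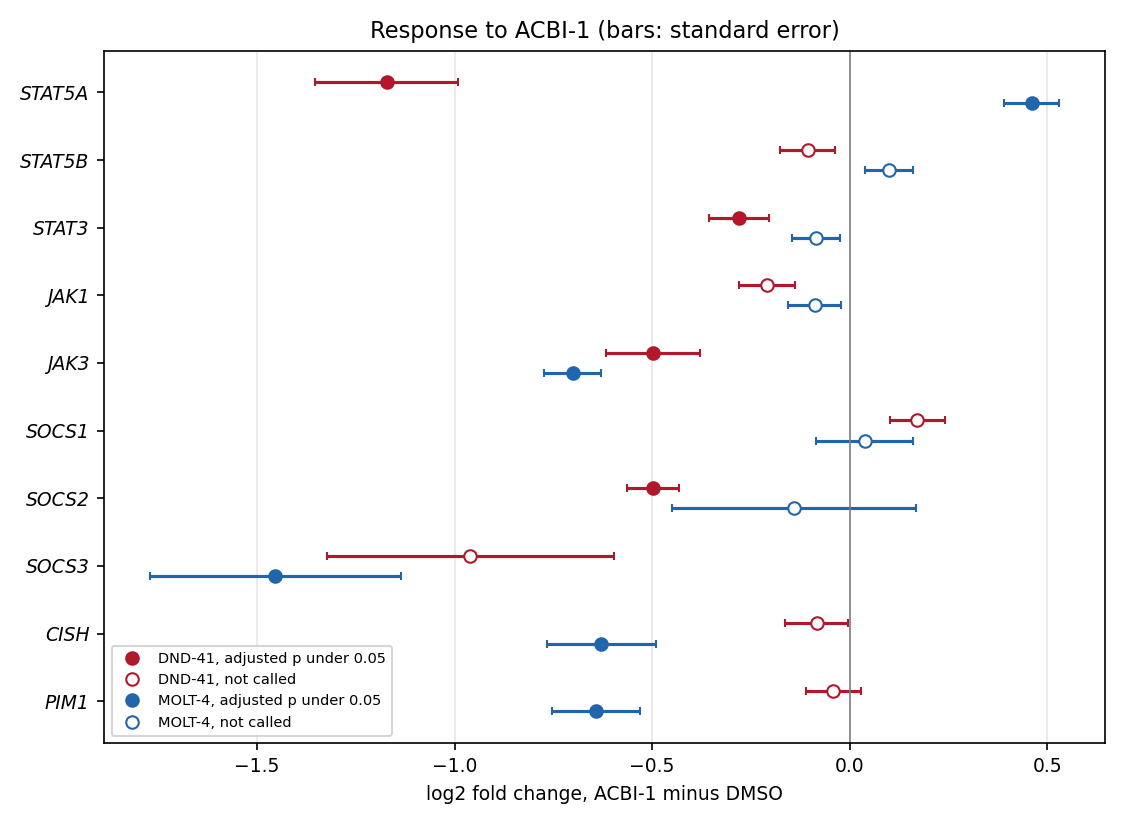
Log2 fold change of ACBI-1 minus DMSO for the 10 genes in DND-41 (red) and MOLT-4 (blue), with standard errors from the edgeR fit of each line; filled points have an adjusted p under 0.05. The STAT5A points are -1.17 for DND-41 and 0.46 for MOLT-4, and JAK3 lies left of 0 in both lines.

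The authors' deposited tables of the same comparisons give the same sizes, with opposite sign conventions in the 2 files: over the genes tested their log2 fold changes had a correlation with those of ACBI-1 minus DMSO of 1 for the DND-41 table and -1 for the MOLT-4 table. In the authors' deposited table for DND-41, STAT5A stands at -1.17 (adjusted p = 0.000657) and SOCS2 at -0.50 (adjusted p = 2.06e-08), with JAK3 at an adjusted p of 0.0878 and STAT3 at 0.114. In the authors' deposited table for MOLT-4, where a negative value means higher in ACBI-1, STAT5A stands at -0.47 (adjusted p = 2.66e-08), JAK3 at 0.69 (1.18e-09) and PIM1 at 0.63 (0.00632), with CISH at an adjusted p of 0.0723 and SOCS3 at 0.0875.

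Whether the lines responded differently was tested in 1 fit of 8 libraries, with the MOLT-4 response subtracted from the DND-41 response. STAT5A and PIM1 passed, 1 lower and 1 higher, against 0.199% lower and 0.442% higher (0.641% in all) of the 15604 genes tested. For STAT5A the difference was -1.66 ± 0.20 (edgeR adjusted p = 3.62e-05). It was -1.35 (edgeR adjusted p = 1.84e-05) with the MOLT-4 reads subtracted and -1.25 (edgeR adjusted p = 0.001) without DND-41 DMSO replicate 2. For PIM1 the difference was 0.58 ± 0.12 (edgeR adjusted p = 0.0169). The call on PIM1 was lost without MOLT-4 ACBI-1 replicate 1 (0.48, edgeR adjusted p = 0.209) or DND-41 DMSO replicate 2 (0.57, edgeR adjusted p = 0.0666). CISH, called in MOLT-4 alone, differed by 0.52 ± 0.15 and did not pass (edgeR adjusted p = 0.168), but passed without DND-41 ACBI-1 replicate 1 (0.63, edgeR adjusted p = 0.0207). JAK3, called in both lines, did not pass either (0.18 ± 0.15, edgeR adjusted p = 0.866). Nor did SOCS2 (-0.38 ± 0.27, edgeR adjusted p = 0.845), SOCS3 (0.47 ± 0.52, edgeR adjusted p = 0.906) and STAT3 (-0.22 ± 0.09, edgeR adjusted p = 0.551). Each of SOCS2, SOCS3 and STAT3 was called in 1 line, and that response was not shown to differ from the other line.

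Other genes of the pathway were read from 4 further lists. These lists were chosen with earlier results of these data known, so their counts are descriptions and not independent tests. Among cytokine receptor subunits 9 of 16 tested genes were higher and 7 lower in DND-41 than in MOLT-4 in DMSO, against 31.6% higher and 32.8% lower of all genes tested, with a median of 0.42 beside -0.0062 over all genes. IL7R, the alpha chain of the interleukin-7 receptor, had 12518 and 12900 reads in DND-41 ACBI-1 and 11312 and 10377 in DND-41 DMSO, against 33 and 51 in MOLT-4 ACBI-1 and 23 and 37 in MOLT-4 DMSO. Its difference between lines was 8.17 ± 0.12 in ACBI-1 and 8.43 ± 0.13 in DMSO (edgeR adjusted p = 5.39e-27 in DMSO), and its response to ACBI-1 was not called in DND-41 (0.22 ± 0.08, edgeR adjusted p = 0.0609) or MOLT-4 (0.46 ± 0.29, edgeR adjusted p = 0.388). The interleukin-4 receptor gene IL4R (2.79 ± 0.10) and IL2RB, the beta chain of the interleukin-2 receptor (2.90 ± 0.18), were also higher in DND-41 DMSO, and IL6ST, the shared chain of interleukin-6-type receptors, was lower (-2.17 ± 0.14). Among other STAT genes, STAT4 was higher (1.32 ± 0.13) and STAT2 lower (-0.57 ± 0.08) in DND-41 DMSO.

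Of 16 other negative regulators 4 were higher and 8 lower in DND-41 DMSO, against the same 31.6% and 32.8% of all genes, with a median of -0.15 beside -0.0062. PTPRC, the CD45 phosphatase gene (-2.59 ± 0.07), and PTPN6, the SHP-1 phosphatase gene (-3.33 ± 0.13), were lower in DND-41, while PTPN2, a phosphatase gene that acts on JAK1, JAK3 and STATs, was higher (1.18 ± 0.07). SOCS6 had 0 and 0 reads in DND-41 ACBI-1 and 0 and 1 in DND-41 DMSO, against 93 and 91 in MOLT-4 ACBI-1 and 114 and 137 in MOLT-4 DMSO. Of 18 other genes reported as STAT5 or STAT3 targets 14 were higher and 1 lower in DND-41 DMSO, against 31.6% higher and 32.8% lower of all genes, with a median of 1.13 beside -0.0062 over all genes. They included the cytokine genes OSM (5.04 ± 0.17) and LTB (3.65 ± 0.09) and the survival genes BCL2 (3.00 ± 0.08) and BCL2L1 (1.34 ± 0.06).

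In the response to ACBI-1 these lists held calls in both directions, against 3.78% higher and 6.05% lower of all genes tested in DND-41 and 3.9% higher and 6.94% lower in MOLT-4. Of the cytokine receptor subunits 2 rose and 1 fell of 13 tested in DND-41, where IL21R (0.71 ± 0.18) and IL6ST (0.68 ± 0.19) rose and the interferon-gamma receptor gene IFNGR2 fell (-0.42 ± 0.09). In MOLT-4 0 rose and 3 fell of 16, IL27RA (-0.72 ± 0.10), IL10RA (-1.89 ± 0.42, at 0.377 CPM in ACBI-1 and 1.38 CPM in DMSO) and IL10RB (-0.27 ± 0.08). The kinase genes JAK2 and TYK2 were not called in either line.

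Of the other negative regulators 1 rose and 2 fell of 15 in DND-41, and 1 rose and 4 fell of 16 in MOLT-4, beside 9.83% of all genes called in DND-41 and 10.8% in MOLT-4. SH2B3, the gene of the adaptor LNK that restrains JAK signalling, fell in DND-41 (-0.52 ± 0.08) and in MOLT-4 (-0.42 ± 0.07). PTPN6 fell in DND-41 (-0.90 ± 0.23, at 2 CPM in ACBI-1 and 3.72 CPM in DMSO) and in MOLT-4 (-0.72 ± 0.09), and CBL, a ubiquitin ligase gene, and PIAS1 fell in MOLT-4 (-0.30 ± 0.07 and -0.22 ± 0.07). PTPN2 rose in DND-41 (0.23 ± 0.07) and in MOLT-4 (0.25 ± 0.08). Of the other reported targets 1 rose and 6 fell of 17 in DND-41, against 3.78% higher and 6.05% lower of all genes, with medians of -0.195 for the list and 0.0029 for all genes. In MOLT-4 4 rose and 5 fell of 17, against 3.9% higher and 6.94% lower of all genes, with medians of -0.16 for the list and -0.00097 for all genes. In DND-41 the cell-cycle inhibitor gene CDKN1A (-0.70 ± 0.11), the survival genes MCL1 (-0.42 ± 0.07) and BCL2 (-0.30 ± 0.07) and SPRED2, an inhibitor of RAS signalling (-0.36 ± 0.07), fell. In MOLT-4 MCL1 (-0.497 ± 0.07) and LTB (-0.74 ± 0.14) fell, and CCND3, the cyclin D3 gene (0.37 ± 0.06), and MYC (0.35 ± 0.06) rose. MYC was also the 1 gene of this list that rose in DND-41 (0.30 ± 0.09, edgeR adjusted p = 0.0274). Its responses were not shown to differ between the lines (-0.08 ± 0.11, edgeR adjusted p = 0.941). In the test of the difference between responses, 1 of 16 receptor subunits passed, IL27RA (0.60 ± 0.13, edgeR adjusted p = 0.0221), and 1 of 18 reported targets, LTB (0.79 ± 0.15, edgeR adjusted p = 0.0072), against 0.641% of all genes tested.

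**Figure D5:**
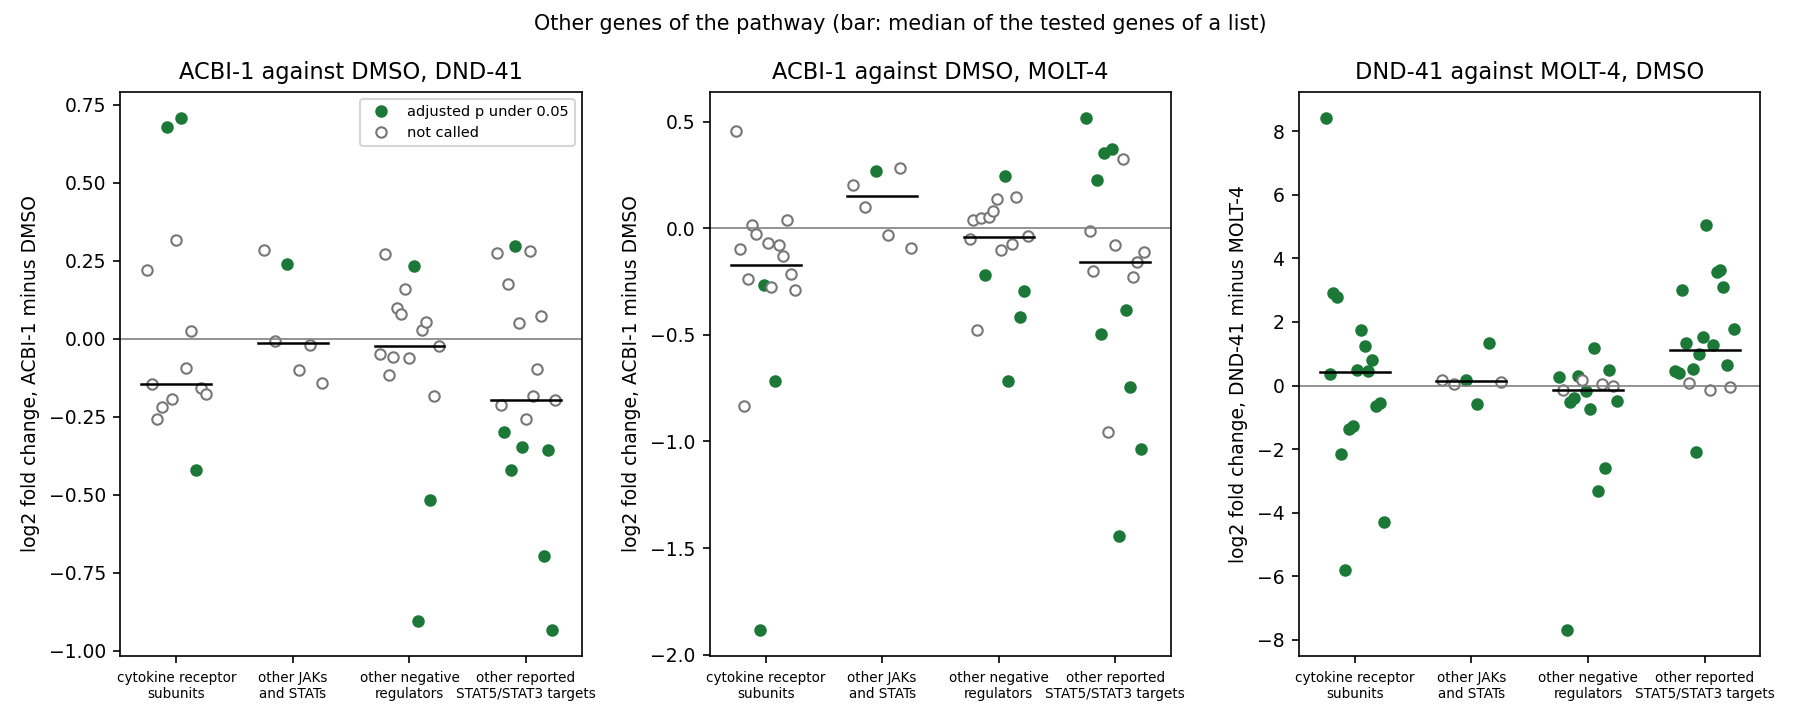
Log2 fold changes of the tested genes of the 4 further lists, for ACBI-1 minus DMSO in DND-41 (left) and MOLT-4 (middle) and for DND-41 minus MOLT-4 in DMSO (right), with filled points for an adjusted p under 0.05 and bars for the median of a list. The vertical scales differ between panels, and the highest point of the right panel, at 8.43, is IL7R.

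For each member the genes of most similar pattern were those with the smallest Euclidean distance between centred log2(CPM + 1) values over the 8 libraries, among 13057 genes at a mean of 1 CPM or more. These distances are descriptions over libraries that share a line, so the line dominates them. The nearest gene of each member is named here. PIM1 lay nearest to MBP (0.275), SOCS2 to DUSP6 (0.329), SOCS1 to NAGLU (0.347) and CISH to AGPAT3 (0.57), all higher in DND-41. STAT5A lay nearest to NINJ2 (0.67), ERG (0.699) and NRN1 (0.804), and ERG and NRN1 are among the 24 genes that marked MOLT-4 reads. STAT5B lay nearest to FZD6 (0.0949), STAT3 to DDAH2 (0.0808), JAK1 to KIAA0355 (0.0946), JAK3 to RP11-513G11.4 (0.269) and SOCS3 to TRGV2 (0.484).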

How the data were processed

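Total RNA of 8 libraries was sequenced as strand-specific paired-end reads of 100 bases, per the labels' protocols. The authors deposited raw read counts per gene, with no normalization, in 1 table per line. Per the submitters' processing notes, STAR 2.5.2a, featureCounts, DESeq2 1.12.4 and build hg19 are listed, with no role stated; annotation and strand setting: not given in the sources used here. The authors also deposited 1 comparison table per line, with a mean normalized signal, a log2 fold change with its standard error, a score (the test statistic) and p-values, raw and adjusted, per gene, per the file headers.

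Counts were tested here with edgeR 4.0.16 (limma 3.58.1, R 4.3.3): quasi-likelihood F-test, TMM scaling, filterByExpr, and Benjamini-Hochberg adjustment over all genes tested at 5%. Each line was fitted on its 4 libraries; differences between lines and between responses came from 1 fit of 8 libraries. Every adjusted p comes from this test unless another is named. CPM is reads per one-millionth of the library's total count. A count of 0 allows up to 3 reads, counting error only. An exact permutation test of 2 against 2 libraries cannot reach 0.05 and was not used. Replicates were not duplicates: the chi-square of their counts averaged 15.6 per gene in DND-41 ACBI-1 and 2.99 in DND-41 DMSO. It averaged 4.25 in MOLT-4 ACBI-1 and 5.1 in MOLT-4 DMSO.

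The members, the 4 further lists and the rules for naming genes (up to 4 called genes per list and comparison, by smallest p) were chosen with earlier results of these data known. One result these rules select is not reported here. Symbols with several identifiers were read from the one in the GENCODE release 29 primary assembly where there was one; the others had 0 reads. Alternatives were DESeq2 1.42.0, its size factors in edgeR, total-count scaling, no filter, a replicate block, all 8 libraries in 1 fit, leaving out each library, and subtracting MOLT-4 reads from DND-41 DMSO replicate 2. The library for the MOLT-4 subtraction was known only from these counts. Subtracting DND-41 reads from the MOLT-4 libraries was also chosen after seeing the data.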

Additional observations from a re-analysis of the deposited data

Results flagged for a closer look

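STAT5A and PIM1 responded differently in the 2 lines by the test of that difference (DND-41 response minus MOLT-4 response, fit of 8 libraries). STAT5A differed by -1.66 (edgeR adjusted p = 3.62e-05, called in 14 of 15 alternative settings, between -1.98 and -1.25): both ACBI-1 libraries lay below both DMSO libraries in DND-41 and above them in MOLT-4. MOLT-4 reads in DND-41 DMSO replicate 2 (0.573% of the MOLT-4 level at the median) move this value, which was -1.35 with those reads subtracted. PIM1 differed by 0.58 (edgeR adjusted p = 0.0169, called in 12 of 15 alternative settings, between 0.48 and 0.74): its groups overlapped in DND-41, and both ACBI-1 libraries lay below both DMSO libraries in MOLT-4.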

How the results depend on the processing

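Differences between the lines kept their calls and directions for 9 of 10 members under all 15 alternatives in ACBI-1 and in DMSO; SOCS3 is the exception. Responses within a line were less stable. With DESeq2, 2 members and 612 genes in all were called in DND-41 and 3 members and 689 genes in MOLT-4. Without the filter on low counts edgeR called 0 members and 2 genes in DND-41, 0 members and 39 genes in MOLT-4, and 0 members and 13 genes for the difference between responses, although 5 members had an unadjusted p under 0.05 in each of the 3; the cause was not tested. Leaving out 1 library gave 0 to 4 members and 3 to 632 genes in DND-41, 0 to 5 members and 0 to 1430 genes in MOLT-4, and 1 to 3 members and 49 to 138 genes for the difference between responses. These fits have fewer libraries, and a lone library in a group is assumed to vary like the others. Without DND-41 ACBI-1 replicate 1, 0 members were called in DND-41 and 4 had an unadjusted p under 0.05. The libraries of a line share a replicate number, but with 2 pairs a line the correlation of same-numbered deviations (0.0669 in DND-41, 0.0672 in MOLT-4) does not show a pairing. The fit of all 8 libraries called 5 members in DND-41 (JAK1 added). With the replicate number as a block 6 members and 2230 genes were called in DND-41 (JAK1 and SOCS1 added), 5 and 2228 in MOLT-4, and 3 members and 302 genes for the difference between responses (CISH added). No member was called in a fit where its sign changed. Over the fits that leave out 1 library, CISH in DND-41 ranged over -0.20 to 0.0225 and PIM1 over -0.096 to 0.0107; in MOLT-4 SOCS1 ranged over -0.11 to 0.20 and SOCS2 over -0.32 to 0.0638. The difference between responses of SOCS1 ranged over -0.0252 to 0.28, and the difference between lines of SOCS3 over -0.0503 to 0.18 in ACBI-1 and -1.01 to 0.0332 in DMSO.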
